A study of Homo sapiens with 9 samples.

Results

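The genes described here are 36 sensors of foreign RNA and interferon-stimulated genes, taken by name from the 60648 genes of the count table. They were followed in 3 lines of the HEK293-derived T-REx cell, an embryonic kidney line that carries the tetracycline repressor. TC4-2A cells carry an inducible transgene that yields a circular RNA of the SMN1 and SMN2 exons 2A, 2B, 3 and 4, and per the study's results also its linear precursor. Below, "with circular RNA" means in TC4-2A and "with linear RNA" means in TL4-2A cells. TL4-2A cells yield a linear RNA of those exons instead, and parental T-REx cells carry no insertion. All 9 libraries, 3 of each line, came from total RNA depleted of ribosomal RNA after 96 h of doxycycline (Dox) at 0.1 µg/mL. T-REx cells received Dox too, so the agent is shared, and transgene RNA and other differences between a derived line and its parent cannot be told apart. Whether each line is 1 clone, and whether its libraries came from separate cultures, is not given in the sources used here, and all p-values cover no more than the spread of these libraries, which may be technical.

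Cells detect foreign RNA with proteins that bind double strands or unusual RNA ends. RIG-I and MDA5 (genes RIGI and IFIH1) signal through the mitochondrial adaptor MAVS to IRF3, which switches on interferon genes. Secreted interferon acts through its receptor, JAK1 and TYK2 to join STAT2 and IRF9 in a factor that binds the interferon-stimulated response element and induces genes that block virus growth. Circular RNAs made outside the cell have been studied as possible triggers of these sensors, and the comparison of each line with T-REx cells asks whether either transgene RNA came with such a response.

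Many of these genes carry the core letters of the response element near their start. The RefSeq windows of GRCh38.p14, from 250 bases before to 50 bases after a start, were searched on both strands for the core letters GAAANNGAAA (TTTCNNTTTC on the other strand). A window was given for 28 of the 36 genes. It was not given for DHX58, OAS2, OASL, IFIT2, IFITM2, IRF3, IRF7 and USP18. Of the 28 genes 19 (67.9%) held the letters, against 1195 (4.38%) of all 27305 genes with a window. The matches below are shown because they stand before genes of this set that were higher in a derived line, lower in one, or called in neither. Each is 30 bases, 5′ to 3′ on the strand of the gene, with the core letters in capitals.
OAS3, chr12:112938321-112938350, plus strand, core 143 bases before the start: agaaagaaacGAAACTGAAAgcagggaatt
OAS3, chr12:112938452-112938481, plus strand, core 12 bases before the start: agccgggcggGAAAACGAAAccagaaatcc
IFIT1, chr10:89392497-89392526, plus strand, core 116 bases before the start: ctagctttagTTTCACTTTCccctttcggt
BST2, chr19:17405741-17405770, minus strand, core 130 bases before the start: tcctttctggGAAACTGAAActgaaaacct
IFIH1, chr2:162318686-162318715, minus strand, core 21 bases before the start: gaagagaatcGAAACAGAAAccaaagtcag
ISG15, chr1:1013380-1013409, plus strand, core 107 bases before the start: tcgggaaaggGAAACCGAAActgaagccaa
IFIT5, chr10:89414513-89414542, plus strand, core 45 bases before the start: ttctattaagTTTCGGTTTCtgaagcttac
DDX60, chr4:168318821-168318850, minus strand, core 88 bases before the start: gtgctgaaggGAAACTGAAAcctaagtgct

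The letters were thus present both in genes that moved and in genes that did not pass the test. Of the genes with a window, 9 of 13 called in at least 1 derived line against T-REx cells held them, and so did 8 of 11 that were tested and called in neither. In BST2 and in ISG15 a further match overlaps the one printed, so their matches are not separate elements. A match describes letters and does not show binding.

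The libraries held 16561680 to 21491977 counts, and their scaling factors were 0.9906 to 1.014. SMN1, from which exons of the transgene come, stood at 38.4 ± 1.84 CPM (counts relative to the scaled library total, SD, n = 3) in the T-REx libraries, 74.8 ± 2.60 in those of TC4-2A and 42.7 ± 1.37 in those of TL4-2A cells. Reads of SMN1 and its near-identical copy SMN2 may have been divided between them. Markers of immune cells, which express many of these genes strongly, were nearly absent. The 8 markers summed to 8 to 17 counts per library (9 to 17 in the T-REx libraries, 9 to 10 in those of TC4-2A and 8 to 15 in those of TL4-2A cells), TYROBP was at 0 in every library, PTPRC had 0 to 2 counts, and none of the 8 passed the filter on low counts. In such bulk RNA, fewer cells expressing a gene and less RNA per cell cannot be told apart.

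Of the 36 genes 29 passed the expression filter and were tested, and 7 did not (OAS1, OAS2, OASL, IRF7, IFI44, IFI44L and IFNB1). Exon length was that of all annotated exons of a gene merged, which can exceed its main transcript and so lower the level per kilobase. Per kilobase of exon, the levels in T-REx cells were led by EIF2AK2 with 23.6 CPM per kb, MAVS with 17.1 and ZC3HAV1 with 12.8. Their percentiles among all tested genes were 91.7, 87.2 and 81.8. At the other end of the tested members were IFIT2 with 0.107 CPM per kb, IFIT3 with 0.122 and IRF9 with 0.152. The basal machinery was present in unequal amounts, since the kinase PKR (EIF2AK2) and the adaptor MAVS were abundant, while RIGI (0.343 CPM per kb), TLR3 (0.228) and DHX58 (0.170) were in the lowest 10% of tested genes.

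**Figure D1:**
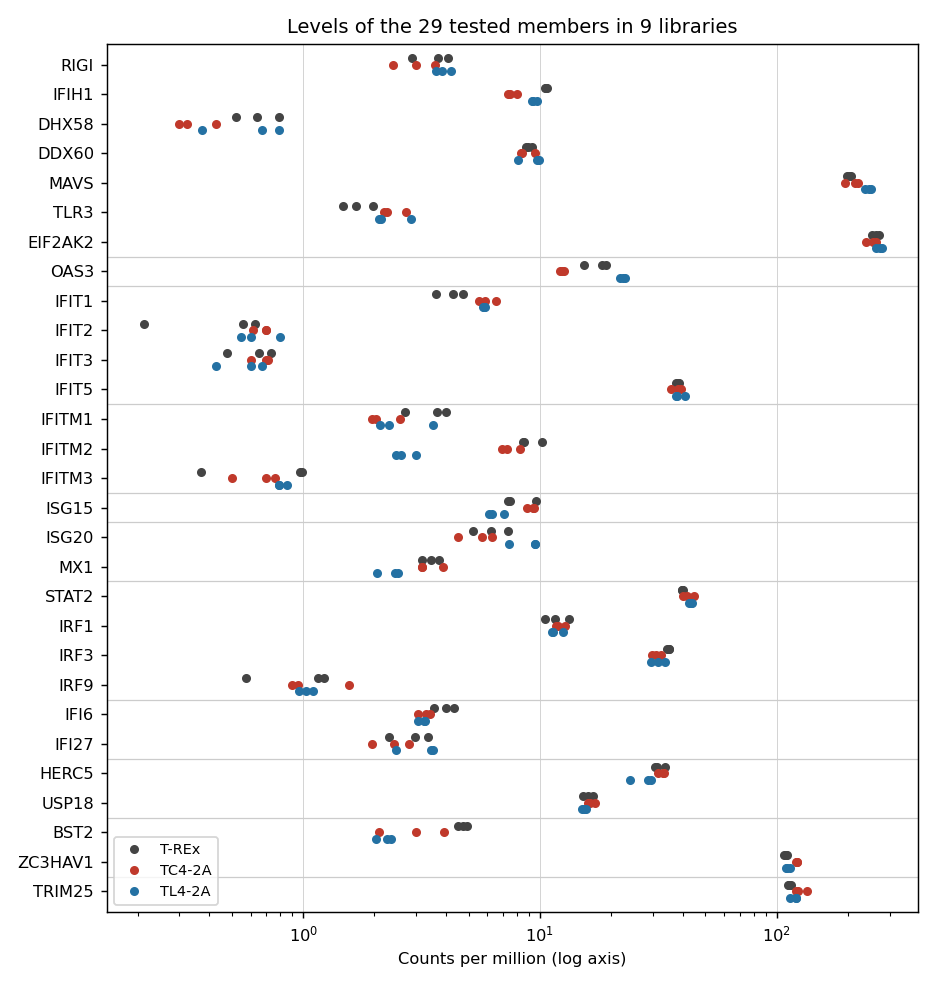
Level of each of the 29 tested genes in each of the 9 libraries, in CPM on a log axis, with 1 point per library coloured by line. The points of the 3 lines lie close together for most genes, and IFITM2 in TL4-2A cells (2.46 to 2.99 CPM, against 8.45 to 10.2 in T-REx cells) has the largest fold change of those tested against T-REx cells.

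Each derived line was first compared with T-REx cells gene by gene. With circular RNA, 3 genes of the set were higher (IFIT1, ZC3HAV1 and TRIM25) and 6 were lower (IFIH1, OAS3, IFITM1, IFITM2, IRF3 and BST2). With linear RNA, 5 were higher (MAVS, OAS3, IFIT1, ISG20 and STAT2) and 6 were lower (IFITM2, ISG15, MX1, IRF3, HERC5 and BST2). Among the 29 tested genes no increase reached 2-fold in either line, and 2 decreases did (IFITM2 and BST2 in TL4-2A cells). IFI44L, below the expression filter, was called higher in TC4-2A cells by edgeR without that filter. Its log2 fold change was 3.02, from 19 counts against 2 in T-REx cells. The calls come from edgeR's quasi-likelihood test at an adjusted p under 0.05 over 19473 genes. In TC4-2A cells 9 of 29 (31.0%) were called, against 28.8% of all tested genes. In TL4-2A cells it was 11 of 29 (37.9%), against 44.3% of all tested genes. Both shares are near their background. Calls over 2-fold made up 2.18% of all tested genes with circular and 4.01% with linear RNA, beside 0 and 2 of the 29. By direction, 14.2% of all tested genes were higher and 14.6% lower with circular RNA, beside 21.9% and 22.5% with linear RNA.

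The median log2 fold change of the 29 was -0.02 with circular and 0.03 with linear RNA, beside 0.00367 and -0.000572 over all tested genes. The 95% interval of the change ended below a 2-fold rise for 28 of the 29 genes in each line. The exception in both was IFIT2, whose interval reached 1.27 with circular and 1.26 with linear RNA on the log2 scale. The libraries of a line did not overlap those of T-REx cells for 13 genes in TC4-2A cells (40.3% of all tested genes did not) and for 14 in TL4-2A cells (51.6% of all). The 3 T-REx libraries serve both comparisons, so their values are set side by side below and not counted as separate evidence.

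**Figure D2:**
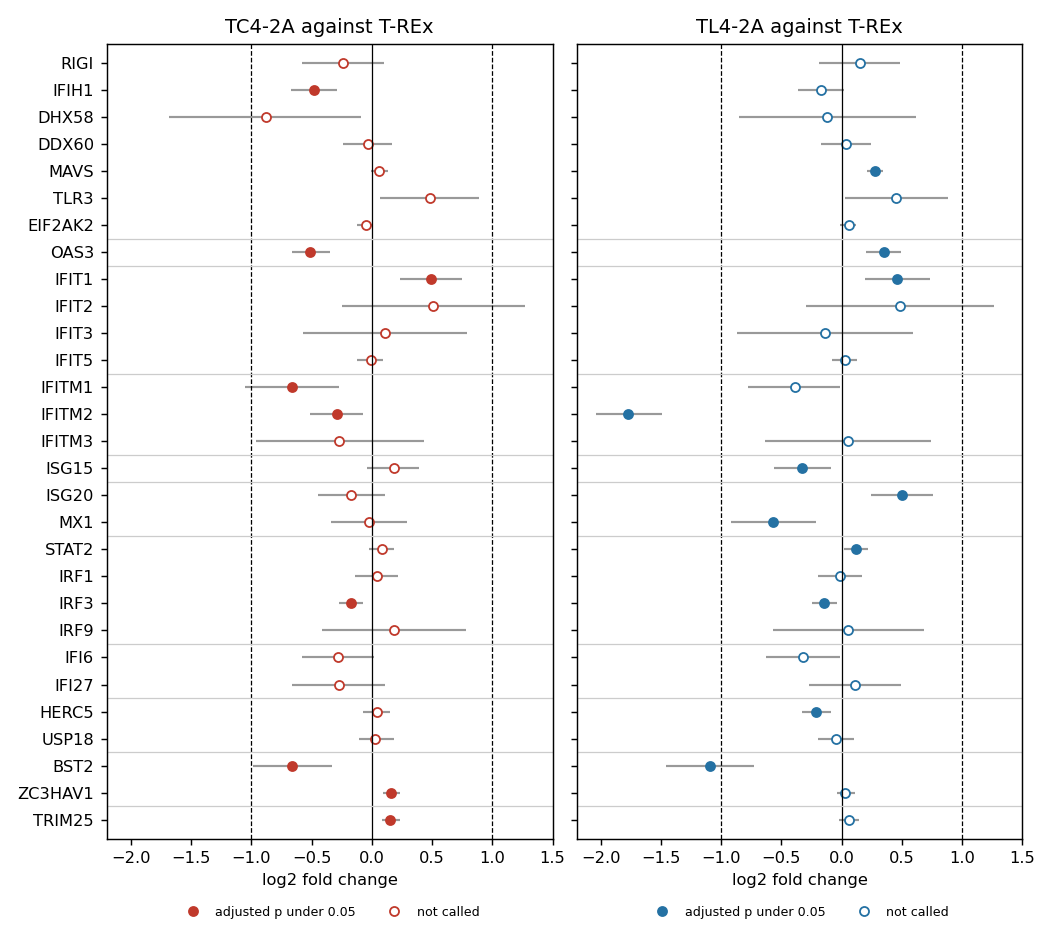
Log2 fold change of the 29 tested genes in TC4-2A (left) and TL4-2A cells (right) against T-REx cells, with 95% intervals, filled where the adjusted p was under 0.05. Dashed lines mark a 2-fold change. No filled point lies right of 0.50, and IFITM2 and BST2 in TL4-2A cells are the 2 that lie left of the lower dashed line.

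Among the sensors, IFIH1 was the only one called against T-REx cells. IFIH1 (ENSG00000115267.9, chromosome 2 of GRCh38, 162267074 to 162318684, minus strand) encodes MDA5, the sensor of long double strands. Its CPM were 10.7, 10.5 and 10.6 in the T-REx libraries, 7.44, 8.03 and 7.31 in those of TC4-2A and 9.69, 9.25 and 9.33 in those of TL4-2A cells. Each TC4-2A library was lower than every other library, and the TL4-2A libraries lay between the other lines. The log2 fold change was -0.48 (standard error, SE, 0.09, edgeR adjusted p = 0.000109) with circular RNA and -0.17 (SE 0.09, adjusted p = 0.133) with linear RNA. The difference between the derived lines, -0.31, was also called (edgeR adjusted p = 0.0121), but not by DESeq2 (adjusted p = 0.0708, range over 15 alternatives 0.0117 to 0.0708).

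The other sensors did not pass the test against T-REx cells. RIGI, the sensor of RNA ends, had 2.87 to 4.07 CPM in the T-REx libraries, 2.40 to 3.60 in those of TC4-2A and 3.63 to 4.23 in those of TL4-2A cells, and its libraries overlapped between T-REx and either derived line. Between the derived lines RIGI was at -0.39 (edgeR adjusted p = 0.0738), and without TC4-2A replicate 3 at -0.53 (adjusted p = 0.0267, range over 15 alternatives 0.0267 to 0.305). Reads of RIGI are uncertain, since 42.5% of the 50-base windows of its transcripts are shared, almost all with a readthrough gene. DHX58, which encodes the regulatory helicase LGP2, stood at 0.522 to 0.788 CPM in the T-REx libraries and 0.300 to 0.427 in those of TC4-2A cells. Its log2 fold change of -0.88 had a 95% interval of -1.68 to -0.09 and did not pass the correction (edgeR adjusted p = 0.0903). TLR3, the endosomal receptor of double-stranded RNA, had 1.48 to 1.98 CPM in the T-REx libraries, 2.20 to 2.71 in those of TC4-2A and 2.09 to 2.85 in those of TL4-2A cells. Its values in both derived lines lay above T-REx cells in all 6 libraries, but the adjusted p-values from edgeR were 0.0718 and 0.0775. DDX60, a helicase that aids RIG-I, was within 0.04 of T-REx cells on the log2 scale in both lines.

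The most abundant genes of the set were those of PKR and MAVS. EIF2AK2 encodes PKR, which halts translation when it binds double-stranded RNA, and had 253 to 269 CPM in the T-REx libraries, 237 to 263 in those of TC4-2A and 263 to 277 in those of TL4-2A cells. Its log2 fold changes of -0.05 and 0.06 against T-REx cells were not called. The derived lines differed by -0.11 (TC4-2A lower, edgeR adjusted p = 0.00665), and without TC4-2A replicate 1 by -0.07 (adjusted p = 0.108, range over 15 alternatives 0.00177 to 0.108). Exons of EIF2AK2 overlap ARL14EPP1 and GPATCH11 on the other strand.

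MAVS (ENSG00000088888.18, chromosome 20, 3846799 to 3876123, plus strand) had 201, 206 and 197 CPM in the T-REx libraries, 195, 220 and 214 in those of TC4-2A and 250, 246 and 235 in those of TL4-2A cells. All 3 TL4-2A libraries were above all others. The log2 fold change was 0.28 in TL4-2A cells (SE 0.03, edgeR adjusted p = 2.01e-08) and 0.06 in TC4-2A cells (adjusted p = 0.21). Without TC4-2A replicate 1 the latter became 0.11 and was called (adjusted p = 0.0157, range over 15 alternatives 0.0157 to 0.763). TC4-2A cells had less MAVS RNA than TL4-2A cells, with a log2 difference of -0.22 (edgeR adjusted p = 2.29e-06).

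The 4 transcription factors tested had log2 fold changes between -0.17 and 0.18 in both lines. IRF3, which carries the signal of the sensors to the interferon genes, had 34.5 to 35.2 CPM in the T-REx libraries, 29.8 to 32.6 in those of TC4-2A and 29.4 to 33.7 in those of TL4-2A cells. Both derived lines lay below T-REx cells without overlap. Its log2 fold changes were -0.17 (edgeR adjusted p = 0.00891) and -0.15 (adjusted p = 0.0199). DESeq2 called neither, and the calls also ended without TC4-2A replicate 2 in TC4-2A cells and without T-REx replicate 2 or TL4-2A replicate 3 in TL4-2A cells. Over 15 alternatives the adjusted p of IRF3 ran from 0.00572 to 0.0921 and from 0.00512 to 0.151. IRF3 overlaps the exons of BCL2L12 on the other strand, and the strand option of the counting is not given in the sources used here.

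STAT2, a subunit of the interferon-activated factor, had 39.7 to 40.0 CPM in the T-REx libraries, 40.1 to 44.8 in those of TC4-2A and 42.8 to 43.7 in those of TL4-2A cells. Its change of 0.12 in TL4-2A cells (edgeR adjusted p = 0.0454) had the highest adjusted p of the calls against T-REx cells among the 36 genes. It held in 7 of 15 alternatives (adjusted p 0.0327 to 0.161) and was lost when any T-REx or TL4-2A library was left out, with DESeq2 and without the expression filter. IRF9, its DNA-binding partner, had 0.574 to 1.56 CPM over all 9 libraries with full overlap of the lines. IRF1, induced by interferon in many cells, lay within 0.04 of T-REx cells on the log2 scale in both. IRF7, the factor that amplifies interferon production, had 1 count in 1 TC4-2A library and 0 in the other 8.

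The ligand listed in the set, IFNB1, was not seen. IFNE, an interferon gene outside the set, had counts in every library, which are given below. IFNB1 had 0 counts in all 9 libraries, and a count of 0 allows up to 3 counts per line, 0.0503 CPM in the T-REx libraries, 0.0503 in those of TC4-2A and 0.0581 in those of TL4-2A cells. Such limits and the intervals of counts cover counting error only.

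OAS3 stood apart, since it was lower with circular and higher with linear RNA. OAS proteins make short oligoadenylates upon binding double-stranded RNA. OAS3 (ENSG00000111331.14, chromosome 12, 112938051 to 112976460, plus strand), with both response element matches printed above, had 18.3, 19 and 15.3 CPM in the T-REx libraries, 12.1, 12.4 and 12.6 in those of TC4-2A and 22.9, 22.5 and 21.8 in those of TL4-2A cells. The 3 lines did not overlap in any library. The log2 fold change was -0.51 in TC4-2A (SE 0.08, edgeR adjusted p = 2.2e-06) and 0.35 in TL4-2A cells (SE 0.07, adjusted p = 0.00013). The difference between the derived lines was -0.85 (95% interval -1.01 to -0.70, edgeR adjusted p = 7.82e-12), and all 3 calls held in 15 of 15 alternatives.

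The other OAS genes were too low to test. OAS1 had 1, 0 and 0 counts in T-REx, 0 in each TC4-2A library and 2, 3 and 3 in TL4-2A cells. Its counting interval over the TL4-2A libraries was 0.0669 to 0.305 CPM (exact Poisson), just above that of TC4-2A cells (upper end 0.0618). It overlapped that of T-REx cells (0.000425 to 0.0935). With no expression filter edgeR called OAS1 between the derived lines (adjusted p = 0.0375), while DESeq2 gave it no adjusted p. OAS2 had 0 to 3 counts per library. OASL had 6, 8 and 3 counts in the T-REx libraries, 7, 5 and 0 in those of TC4-2A and 1, 3 and 1 in those of TL4-2A cells, and was not called without the filter (adjusted p = 0.683 and 0.166 from edgeR).

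**Figure D3:**
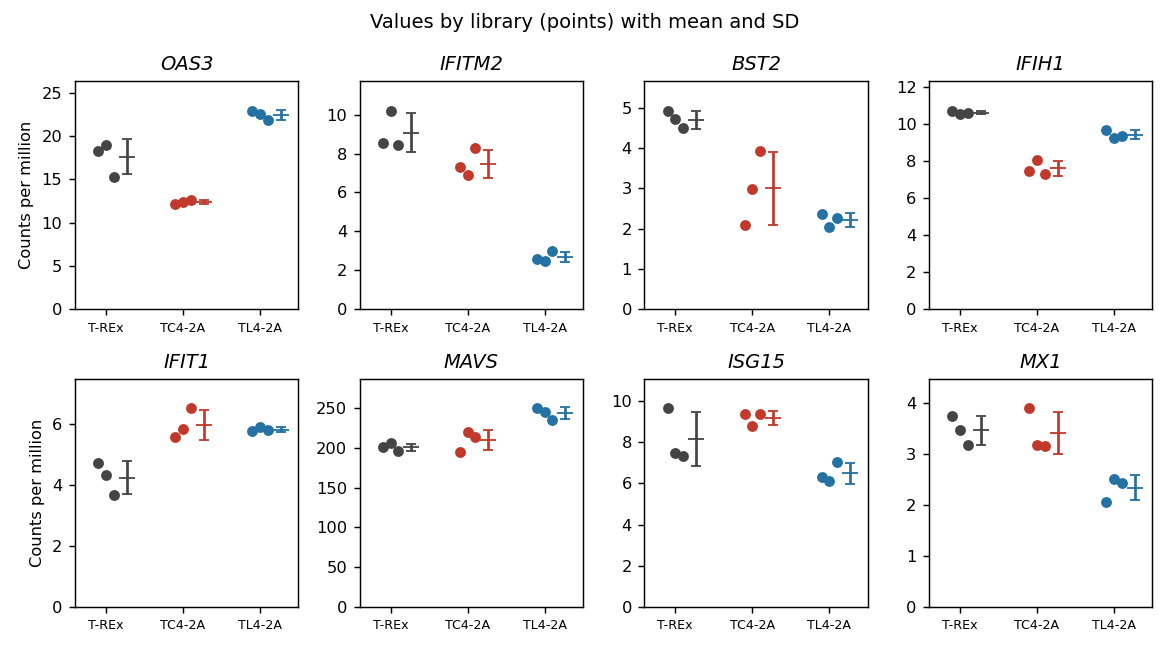
CPM in each library (points), with the mean and SD of 3 libraries, for 8 genes of the set in the 3 lines. OAS3 is lower with circular and higher with linear RNA, IFITM2 drops in TL4-2A cells, and the BST2 libraries of TC4-2A cells are spread from 2.10 to 3.92.

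IFIT1 was the single gene of the set that was called higher in both derived lines. IFIT proteins bind foreign RNA by its end and keep it from being translated. IFIT1 (ENSG00000185745.10, chromosome 10, 89392546 to 89406487, plus strand) had 4.72, 4.31 and 3.65 CPM in the T-REx libraries, 5.55, 5.84 and 6.50 in those of TC4-2A and 5.75, 5.88 and 5.79 in those of TL4-2A cells. All 6 libraries of the derived lines were above the 3 of T-REx cells, which both comparisons share. The log2 fold changes were 0.49 (SE 0.13, edgeR adjusted p = 0.00311) and 0.46 (SE 0.13, adjusted p = 0.00491). Between the derived lines the difference was 0.03, with a 95% interval of -0.22 to 0.29.

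Its neighbours on chromosome 10 were not called. IFIT2 had 0.212 to 0.626 CPM in the T-REx libraries, 0.617 to 0.699 in those of TC4-2A and 0.549 to 0.802 in those of TL4-2A cells, and its changes of 0.51 and 0.48 had adjusted p-values of 0.337 and 0.326 from edgeR. IFIT3 stood at 0.428 to 0.730 CPM over all libraries, with overlap of every line. IFIT5, expressed far above the others at 35.6 to 40.9 CPM, was at -0.01 and 0.03 on the log2 scale, and its 95% intervals lay within -0.12 and 0.13. Exons of IFIT2 and IFIT3 overlap LIPA on the other strand.

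The IFITM genes, which encode membrane proteins that hinder virus entry, were lower than in T-REx cells where they were called. IFITM2 (ENSG00000185201.17, chromosome 11, 303655 to 309397, plus strand) had 8.54, 10.2 and 8.45 CPM in the T-REx libraries, 7.29, 6.89 and 8.27 in those of TC4-2A and 2.60, 2.46 and 2.99 in those of TL4-2A cells. All TL4-2A libraries were far below the others, and those of TC4-2A cells were just below T-REx cells. The log2 fold change in TL4-2A cells was -1.77 (SE 0.14, edgeR adjusted p = 2.49e-13), a level 3.40-fold lower. In TC4-2A cells it was -0.29 (edgeR adjusted p = 0.0432), which held in 10 of 15 alternatives (adjusted p 0.0227 to 0.297). That call ended with DESeq2, without the expression filter, and without T-REx replicate 2, TC4-2A replicate 1 or TC4-2A replicate 2. The derived lines differed by 1.48 (95% interval 1.19 to 1.77, edgeR adjusted p = 5.78e-11).

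IFITM1 had 2.70, 3.66 and 4.02 CPM in the T-REx libraries, 1.95, 2.56 and 2.04 in those of TC4-2A and 2.12, 2.30 and 3.54 in those of TL4-2A cells. The TC4-2A libraries were all below T-REx cells, while those of TL4-2A cells overlapped them. The change in TC4-2A cells was -0.66 (edgeR adjusted p = 0.0081), and -0.55 without T-REx replicate 3 (adjusted p = 0.0665, range over 15 alternatives 0.00189 to 0.0665). In TL4-2A cells it was -0.39 (adjusted p = 0.0933), and was called without T-REx replicate 1 (-0.54) and without TL4-2A replicate 3 (-0.65), with adjusted p from 0.0148 to 0.325 over 15 alternatives. IFITM3 had 0.371 to 0.991 CPM over all libraries and was not called. The 3 genes share sequence (29.8% of the 50-base windows of IFITM1, 21.6% of IFITM2 and 15.4% of IFITM3, mainly with each other), so reads could have been divided among them.

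BST2 was lower in both derived lines. It encodes tetherin, which holds budding virus at the cell surface. BST2 (ENSG00000130303.14, chromosome 19, 17402939 to 17405630, minus strand) had 4.93, 4.73 and 4.49 CPM in the T-REx libraries, 2.10, 2.99 and 3.92 in those of TC4-2A and 2.36, 2.03 and 2.26 in those of TL4-2A cells. No library of a derived line reached the lowest T-REx library, and the TC4-2A libraries were the most spread. The log2 fold change was -0.66 in TC4-2A (SE 0.16, edgeR adjusted p = 0.0019) and -1.09 in TL4-2A cells (SE 0.18, adjusted p = 4.95e-06), a 2.13-fold lower level. The difference between the derived lines was 0.43 (edgeR adjusted p = 0.0851), but 0.63 without TC4-2A replicate 1 (adjusted p = 0.00837, range over 15 alternatives 0.00837 to 0.486).

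ISG15 and its ligase HERC5 were lower with linear RNA. ISG15 is a ubiquitin-like protein, HERC5 its ligase, USP18 the protease that removes it, and TRIM25 a ligase that acts on RIG-I and is itself modified by ISG15. ISG15 (ENSG00000187608.10, chromosome 1, 1001138 to 1014540, plus strand) had 9.65, 7.46 and 7.36 CPM in the T-REx libraries, 9.39, 8.79 and 9.40 in those of TC4-2A and 6.30, 6.10 and 7.07 in those of TL4-2A cells. T-REx replicate 1 was the highest library, apart from the other T-REx libraries, and every TL4-2A library was below all others. The change in TL4-2A cells was -0.33 (edgeR adjusted p = 0.0203). It was lost with DESeq2 (adjusted p = 0.085), without T-REx replicate 1 (-0.20), and without TL4-2A replicate 1 or 2, with adjusted p from 0.0126 to 0.199 over 15 alternatives. In TC4-2A cells the change was 0.18 (edgeR adjusted p = 0.229), and 0.31 without T-REx replicate 1 (adjusted p = 0.0383, range over 15 alternatives 0.0383 to 0.557). The difference between the derived lines was 0.50 (edgeR adjusted p = 0.000504) and held in 15 of 15 alternatives.

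HERC5 had 30.6 to 33.6 CPM in the T-REx libraries, 31.6 to 33.3 in those of TC4-2A and 24.1 to 29.4 in those of TL4-2A cells. The TL4-2A libraries were below all others. The change there was -0.21 (edgeR adjusted p = 0.00297), and -0.13 without TL4-2A replicate 3 (adjusted p = 0.0683, range over 15 alternatives 0.00109 to 0.0683). USP18 was at 15.1 to 17.0 CPM over all 9 libraries, with changes of 0.03 and -0.05 that were not called, and shares 23.1% of its 50-base windows, mainly with USP41 and related loci. TRIM25 had 112 to 115 CPM in the T-REx libraries, 121 to 134 in those of TC4-2A and 114 to 121 in those of TL4-2A cells, and rose by 0.15 in TC4-2A cells (edgeR adjusted p = 0.00194). Without TC4-2A replicate 2 the TRIM25 change was 0.10 (adjusted p = 0.0553, range over 15 alternatives 0.000487 to 0.0553). Its difference of 0.10 between the derived lines (edgeR adjusted p = 0.0506) was called in 5 of 15 alternatives (adjusted p 0.0141 to 0.431). Exons of TRIM25 overlap C17orf67 on the same strand and DGKE on the other.

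Of the other effectors, MX1 and ISG20 changed with linear RNA and ZC3HAV1 with circular RNA. MX1 (ENSG00000157601.15, chromosome 21, 41420020 to 41470071, plus strand) encodes an antiviral GTPase often read as a gauge of interferon. Its CPM were 3.76, 3.48 and 3.18 in the T-REx libraries, 3.90, 3.18 and 3.17 in those of TC4-2A and 2.06, 2.51 and 2.44 in those of TL4-2A cells. TC4-2A cells overlapped T-REx cells, and every TL4-2A library was below both. The log2 fold change was -0.02 in TC4-2A cells (edgeR adjusted p = 0.937) and -0.57 in TL4-2A cells (SE 0.17, adjusted p = 0.00763), and the latter call held in 15 of 15 alternatives. Between the derived lines MX1 differed by 0.54 (edgeR adjusted p = 0.0132), a call lost with DESeq2 and without TC4-2A replicate 1 or TL4-2A replicate 1 (adjusted p 0.0103 to 0.0758 over 15 alternatives). An exon of TMPRSS2 overlaps MX1 on the other strand.

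ISG20 (ENSG00000172183.16), an RNA exonuclease, had 6.20, 5.24 and 7.30 CPM in the T-REx libraries, 6.30, 5.70 and 4.51 in those of TC4-2A and 9.51, 7.43 and 9.57 in those of TL4-2A cells. The TL4-2A libraries were above all others. It rose by 0.50 in TL4-2A cells (SE 0.13, edgeR adjusted p = 0.00164), was at -0.17 in TC4-2A cells (adjusted p = 0.385), and differed between the derived lines by -0.67 (adjusted p = 7.92e-05). ZC3HAV1, which encodes the zinc finger antiviral protein, had 107 to 110 CPM in the T-REx libraries, 121 to 122 in those of TC4-2A and 109 to 114 in those of TL4-2A cells. Its change was 0.16 in TC4-2A (SE 0.03, edgeR adjusted p = 0.000389) and 0.03 in TL4-2A cells (adjusted p = 0.457), and the derived lines differed by 0.13 (adjusted p = 0.00402).

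IFI6 and IFI27, mitochondrial proteins that respond to interferon in most cells, were not called. IFI6 had 3.57 to 4.35 CPM in the T-REx libraries, 3.06 to 3.42 in those of TC4-2A and 3.05 to 3.27 in those of TL4-2A cells, lower in each derived library than in each T-REx library, with adjusted p-values of 0.165 and 0.0915 from edgeR. IFI27 had 1.95 to 3.54 CPM over all libraries, and the lines overlapped. Its difference of -0.38 between the derived lines (edgeR adjusted p = 0.126) became -0.54 without TL4-2A replicate 2 (adjusted p = 0.0421, range over 15 alternatives 0.0421 to 0.376). IFI44 had 0 to 3 counts per library. IFI44L, a gene with a strong interferon response, had 0, 1 and 1 counts in the T-REx libraries, 6, 7 and 6 in those of TC4-2A and 1, 3 and 3 in those of TL4-2A cells. Over each line this is 2, 19 and 7 counts, with exact Poisson intervals of 0.00406 to 0.121, 0.192 to 0.497 and 0.0545 to 0.279 CPM. The interval of TC4-2A cells lay above that of T-REx cells. With no expression filter edgeR called this difference (log2 fold change 3.02, adjusted p = 0.00849), and DESeq2 gave no adjusted p (unadjusted p = 0.0111).

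The derived lines were then compared with each other. Since TC4-2A cells also make a linear precursor of the circle, and the lines may differ in other ways, this is not circular against linear RNA alone. Of the 29 genes 5 were higher in TC4-2A cells (IFITM2, ISG15, MX1, HERC5 and ZC3HAV1) and 5 were lower (IFIH1, MAVS, EIF2AK2, OAS3 and ISG20). These 10 are 34.5% of the genes, beside 35.4% of all tested genes (17.6% higher and 17.8% lower). The median over the 29 was 0.03. IFITM2 was the single member over 2-fold, as were 2.98% of all tested genes. The libraries of the derived lines did not overlap for 12 of the 29, beside 44.9% of all tested genes.

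Summed over all 36 genes, the CPM were 941.9 to 957.8 in the T-REx libraries, 921.9 to 990.1 in those of TC4-2A and 994.5 to 1007 in those of TL4-2A cells. The TL4-2A libraries were above all others. Without MAVS and EIF2AK2 the sums were 483.0 to 494.4 in the T-REx libraries, 490.0 to 506.6 in those of TC4-2A and 482.7 to 489.2 in those of TL4-2A cells. T-REx cells then overlapped both derived lines, while TC4-2A libraries lay above those of TL4-2A cells.

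Since stretches of neighbouring genes can move together in derived lines, each gene was set beside the 20 tested genes on either side of it on its chromosome. For OAS3, BST2 and IFITM2 the neighbours stood near 0. The medians with circular and with linear RNA were 0.02 and 0.06 around OAS3, -0.02 and 0.06 around BST2, and 0.03 and -0.01 around IFITM2 (26 neighbours, close to the chromosome end). Around IFIT1 they were -0.10 and -0.14, opposite in sign to its own 0.49 and 0.46. The 40 neighbours of ISG15 had a median of -0.29 in TL4-2A cells, with 22 called lower and 4 higher, beside its own -0.33. Around HERC5 the median in TL4-2A cells was -0.14, with 12 of 40 called lower and 3 higher, beside its own -0.21. The part of these neighbours in the ISG15 and HERC5 values was not tested.

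Around IFIH1 the neighbours had a median of 0.49 in TL4-2A cells, with 29 of 40 called higher and 1 lower, beside -0.17 for IFIH1 itself. Around DDX60 the median in TC4-2A cells was 0.34, with 19 of 40 called higher, beside its own -0.03. ZC3HAV1 rose by 0.16 in TC4-2A cells among neighbours with a median of 0.40, of which 28 of 40 were called higher. Their part in the ZC3HAV1 value was not tested.

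Between the derived lines, some called genes also lay among neighbours that differed the same way. IFIH1 (-0.31) had neighbours with a median of -0.51, of which 28 of 40 were called lower in TC4-2A cells and 1 higher. Around ISG15 (0.50) the median was 0.36 with 23 called higher and 2 lower, around ZC3HAV1 (0.13) it was 0.34 with 30 and 1, and around MX1 (0.54) it was 0.23 with 15 and 3. For OAS3 and IFITM2 the medians were 0.05 and 0.01. The part of the neighbours in these differences was not tested.

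**Figure D4:**
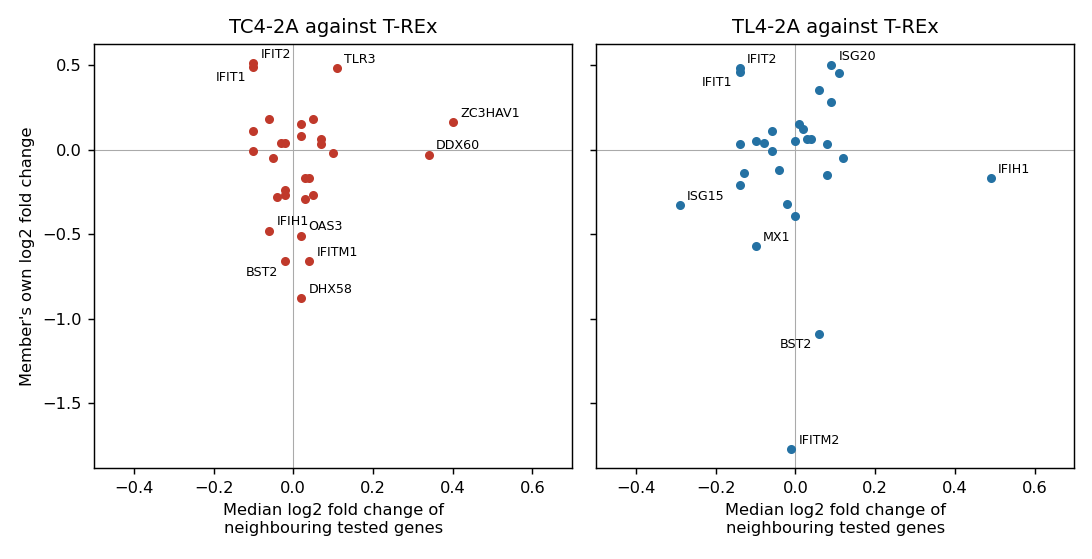
Log2 fold change of each tested gene of the set (vertical) against the median of the tested genes around it on its chromosome (horizontal), in TC4-2A (left) and TL4-2A cells (right) against T-REx cells. IFITM2 and BST2 lie far below 0 with neighbours near 0, IFIH1 in TL4-2A cells has neighbours at 0.49, and ISG15 lies near its neighbours at -0.29.

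The rest of the pathway was read from a list of 101 genes, of which 69 were tested. In TC4-2A cells 15 were higher and 13 lower (40.6% called, against 28.8% of all tested genes), with a median of 0.04. In TL4-2A cells 20 were higher and 14 lower (49.3%, against 44.3%), with a median of 0.05. Between the derived lines 13 were higher in TC4-2A cells and 19 lower (46.4%, against 35.4%). SAMD9, an antiviral factor on chromosome 7, was the single tested pathway gene called over 2-fold against T-REx cells, and it was lower. Among genes below the filter, edgeR without it called IFI16 higher in TC4-2A cells (2.24) and GBP1 lower in both lines (-4.98). Their counts are given at the end. SAMD9 had 6.68, 6.26 and 6.99 CPM in the T-REx libraries, 2.85, 2.28 and 2.58 in those of TC4-2A and 3.09, 3.37 and 3.35 in those of TL4-2A cells. Both derived lines lay far below T-REx cells, with log2 fold changes of -1.37 (edgeR adjusted p = 5.11e-10) and -1.02 (adjusted p = 1.25e-07).

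Of 10 tested genes of the interferon receptor, its kinases and its factors, 1 was higher and 2 lower with circular RNA (30%, against 28.8% of all tested genes), while 2 rose and 4 fell with linear RNA (60%, against 44.3%). IFNAR1, a receptor chain, had 84.4 to 92.1 CPM in T-REx cells and was lower by a log2 fold change of -0.13 in TL4-2A cells (adjusted p = 0.0145), a call lost without T-REx replicate 3 (-0.10) or TL4-2A replicate 1 (-0.11). IFNAR2, the other chain, was at 0.21 and 0.18 (adjusted p = 0.0198 and 0.0395 from edgeR), and DESeq2 called neither. The IFNAR2 call in TL4-2A cells held in 8 of 15 alternatives (adjusted p 0.00725 to 0.44) and also ended without the expression filter, without T-REx replicate 1 or 3, without TC4-2A replicate 2, and without TL4-2A replicate 2 (0.08) or 3. The one in TC4-2A cells was not called without T-REx replicate 1 (0.17) or TC4-2A replicate 2 or 3 (0.22 and 0.16). JAK1 (-0.08 and 0.05) and TYK2 (-0.08 and 0.09) were not called against T-REx cells. Without TL4-2A replicate 3 TYK2 was called with linear RNA (0.15, edgeR adjusted p = 0.0163, range over 15 alternatives 0.0163 to 0.416).

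Of 17 tested genes of sensor signalling, 3 were higher and none lower with circular RNA (17.6%, against 28.8% of all tested genes), while 5 rose and 2 fell with linear RNA (41.2%, against 44.3%). Both shares are below their background. TBK1, the kinase of IRF3, was at 0.03 and 0.11 and not called. With linear RNA TBK1 was called in 2 of 15 alternatives (adjusted p 0.0397 to 0.229). These were the fit of only the 2 lines compared (edgeR adjusted p = 0.0397) and the replicate block. TICAM1, the adaptor of TLR3, was at 0.05 and -0.31 and not called, but reached -0.49 in TL4-2A cells without TL4-2A replicate 2 (edgeR adjusted p = 0.0251, range over 15 alternatives 0.0251 to 0.438). Without that library TICAM1 was also called between the derived lines (0.54, edgeR adjusted p = 0.0164, range over 15 alternatives 0.0164 to 0.33). STING1, which relays the DNA sensor cGAS, was at 0.04 and 0.01, and CGAS itself had 2 to 9 counts per library and was not tested.

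Genes that bind, edit or degrade double-stranded RNA were called with small changes. Of 11 tested, 6 were higher and 2 lower with circular RNA (72.7%, against 28.8% of all tested genes), while 6 rose and 1 fell with linear RNA (63.6%, against 44.3%). ADAR, which edits adenosine in double strands and so shields the cell's own RNA, had 373 to 387 CPM in the T-REx libraries, 404 to 413 in those of TC4-2A and 406 to 424 in those of TL4-2A cells. All 6 derived libraries were above T-REx cells, with changes of 0.10 (edgeR adjusted p = 0.00262) and 0.12 (adjusted p = 0.000254).

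**Figure D5:**
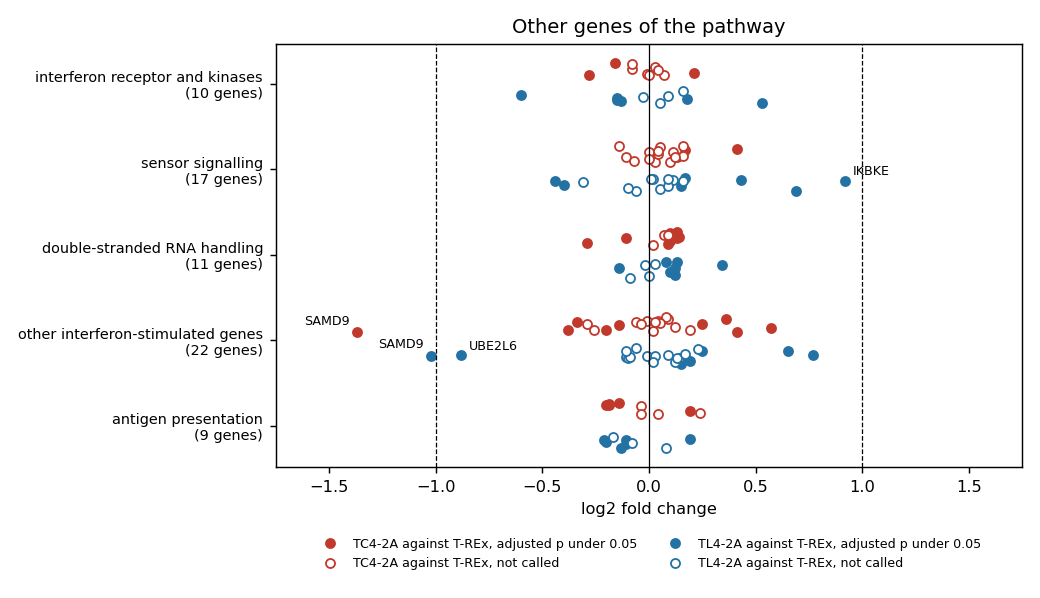
Log2 fold change of the 69 tested pathway genes in TC4-2A (red) and TL4-2A cells (blue) against T-REx cells by group, filled where the adjusted p was under 0.05, with dashed lines at a 2-fold change. Most points lie close to 0, and SAMD9 (-1.37 and -1.02) is the single gene beyond a dashed line. UBE2L6 and IKBKE were labelled after their values were seen.

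Of 22 other interferon-stimulated genes tested, 4 were higher and 5 lower with circular RNA (40.9%, against 28.8% of all tested genes), while 6 rose and 2 fell with linear RNA (36.4%, against 44.3%). Of 9 antigen presentation genes, 1 was higher and 4 were lower with circular RNA (55.6%, against 28.8%), while 1 rose and 5 fell with linear RNA (66.7%, against 44.3%). B2M, the light chain of class I molecules, had 166 to 178 CPM in the T-REx libraries, 156 to 161 in those of TC4-2A and 147 to 154 in those of TL4-2A cells. Its changes of -0.14 (edgeR adjusted p = 0.000902) and -0.21 (adjusted p = 2.04e-06) were small, and no library of a derived line reached T-REx cells. None of the 13 interferons and chemokines listed passed the filter. IFNE, an interferon gene of this group, was picked after its values were seen. It had 2, 4 and 3 counts in the T-REx libraries, 10, 7 and 5 in those of TC4-2A and 8, 5 and 3 in TL4-2A cells. With no expression filter edgeR called it in neither line (log2 fold changes 1.25 and 1.0, adjusted p = 0.191 and 0.338). The other interferons of this group had at most 1 count per library. CXCL10, the chemokine most used as a sign of interferon, had 3, 2 and 1 counts in T-REx, 0 in each TC4-2A library and 0, 1 and 0 in TL4-2A cells.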

How the data were processed

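RNA of 9 libraries was sequenced with paired ends by the authors after ribosomal RNA depletion and directional library preparation. The deposited counts are raw counts per gene, which the authors made with HISAT2 on GRCh38 and featureCounts on Gencode v33 (versions and the options for strand and multiple matches: not given in the sources used here). In addition the authors deposited tables of DESeq2 fold changes and p-values for each line, which were not used. From the counts, 3 damaged lines were left out.

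The test was that of edgeR 4.0.16 with R 4.3.3 (filterByExpr, TMM, 1 quasi-likelihood fit of the 3 lines to all 9 libraries, 2-sided). Calls needed an adjusted p (Benjamini-Hochberg, over 19473 genes) under 0.05. CPM were computed with the TMM-scaled library sizes, and log2 fold changes and 95% intervals are those of the model. Library totals of 16561680 to 21491977 set the precision. Names and positions came from Gencode v44, which held 99.69% of IDs, and promoter windows from RefSeq. Shared sequence was counted in 50-base transcript windows. The fit was tested on simulated data.

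The members and gene lists were chosen with earlier results of these data known. Named were all 36 members, a short list of pathway genes whatever their values (some of which are not reported here), pathway genes called over 2-fold without overlap of libraries, and SMN1 and SMN2 as a check. As alternatives the comparisons were run with DESeq2 1.42.0, with a block for the replicate number, on the 2 compared lines alone, with RLE scaling, without a filter or with a minimum of 10 counts per library, and with single libraries removed. Tables and plots used Python 3.11.15, pandas 2.3.3 and matplotlib 3.10.9.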

Additional observations from a re-analysis of the deposited data

Results flagged for a closer look

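For 10 genes of the set and 3 named pathway genes the change from T-REx cells differed between the derived lines, by the direct comparison of TC4-2A with TL4-2A cells in edgeR at an adjusted p under 0.05. A positive log2 difference is higher in TC4-2A cells. Among the sensors and their adaptor, IFIH1 differed by -0.31, MAVS by -0.22 and EIF2AK2 by -0.11. Among the effectors, OAS3 differed by -0.85 and ISG20 by -0.67, while IFITM2 differed by 1.48, MX1 by 0.54 and ZC3HAV1 by 0.13. ISG15 differed by 0.50 and its ligase HERC5 by 0.25. In the pathway, TYK2 differed by -0.17 and JAK1 by -0.14, and IFNAR1 by 0.19. OAS3 is the single gene of the 29 tested that was called in opposite directions in the derived lines. Of these differences, those of IFIH1, EIF2AK2 and MX1 were lost in at least 1 alternative, as given with their values above. IFIH1, ISG15, ZC3HAV1 and MX1 lay among neighbouring genes that differed in the same direction, as given above. Differences this common (35.4% of all tested genes) are not particular to the set, and the causes were not tested.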

How the results depend on the processing

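The number of the 36 genes called against T-REx cells was 9 with circular and 11 with linear RNA, and 10 between the derived lines. It was 7, 8 and 8 with DESeq2, 9, 10 and 12 without the expression filter, 9, 11 and 11 with at least 10 counts in every library, and 9, 11 and 10 both with RLE scaling and with only the 2 lines compared. Leaving out each library in turn gave 6 to 10, 9 to 11 and 9 to 12. The pathway genes called were 28, 34 and 32, with DESeq2 20, 28 and 28, without the expression filter 27, 30 and 27, and with a library left out 20 to 28, 26 to 34 and 29 to 32. No call of a named gene turned its direction in any alternative. With the replicate number as a block 9, 11 and 11 genes of the set and 28, 34 and 32 pathway genes were called, and the block added TRIM25 between the derived lines (adjusted p = 0.0394) and TBK1 with linear RNA (adjusted p = 0.049, both from edgeR). Libraries of the same number share only that number: their deviations correlated by -0.0295 to 0.0302, and 3 of 9 libraries correlated best with their own number. Apart from leaving out a library, 672 values of single genes kept their side of the threshold, 5 gained a call and 12 lost one. With a library left out it was 1010, 12 and 31. With 3 libraries per line, genes below about 1 CPM had wide intervals, and 7 genes had too few counts to be tested.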

Other observations

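A few other genes of the pathway list were picked out after their values were seen. UBE2L6, the conjugating enzyme of ISG15, had 6.36, 7.46 and 6.0 CPM in the T-REx libraries, 8.69, 8.22 and 8.60 in those of TC4-2A and 3.51, 3.85 and 3.41 in those of TL4-2A cells. No library overlapped between the lines, and the log2 fold changes were 0.36 (edgeR adjusted p = 0.0109) and -0.88 (adjusted p = 8.68e-07), with a difference of 1.24 between the derived lines (adjusted p = 2.43e-10). IKBKE, a kinase related to TBK1, had 3.08 to 3.86 CPM in the T-REx libraries, 3.30 to 4.75 in those of TC4-2A and 4.94 to 8.42 in those of TL4-2A cells, where it rose by 0.92 (edgeR adjusted p = 1.87e-05).

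Of the genes under the expression filter, IFI16 and GBP1 were likewise picked after their values were seen. IFI16, a sensor of nuclear DNA, had 2, 2 and 1 counts in the T-REx libraries, 8, 8 and 9 in those of TC4-2A and 2, 1 and 4 in those of TL4-2A cells, and with no filter edgeR called TC4-2A against T-REx cells (adjusted p = 0.0114), while DESeq2 gave no adjusted p. GBP1, a guanylate-binding protein, had 5, 5 and 2 counts in T-REx cells and 0 in all 6 libraries of the derived lines (adjusted p = 0.0121 and 0.0123 from edgeR with no filter). DESeq2 gave GBP1 no adjusted p in either line (unadjusted p = 0.0119 and 0.0166). A count of 0 allows up to 0.0503 CPM of GBP1 in the circular RNA line and 0.0581 in the linear RNA line.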
